A study of Homo sapiens with 6 samples.

Results

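Long non-coding RNAs (lncRNAs) are transcripts that act as RNA rather than as templates for protein, and 8 of the most abundant or best studied ones were examined here in drug-resistant breast cancer cells: MALAT1, NEAT1, TUG1, NORAD, KCNQ1OT1, CYTOR, DANCR and GAS5. They were taken by name from a list of regulatory lncRNAs, and each gene's count is the sum over its annotated transcripts. They are 8 of 61015 genes on file, of which 18671 are annotated as lncRNA genes, and all 8 passed the filter on low counts. The annotation used (GENCODE) types TUG1 as protein coding and the other 7 as lncRNA.

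The cells were MDA-MB-231, a mesenchymal triple-negative breast cancer line, made resistant to paclitaxel (PTX), a drug that stabilises microtubules. They were sorted on aldehyde dehydrogenase (ALDH) activity into ALDH+ cells, called BCSC (breast cancer stem cells), and ALDH- cells, called non-BCSC, with 3 libraries of each. All 6 libraries came from PTX-resistant cells of this 1 line, so no drug-sensitive control entered the comparison, which asks which lncRNAs differ between the stem-like and the remaining cells of a resistant line. The groups follow the sample titles, because the cell type label is the same for all 6. No source says that the 3 libraries of a group were separate cultures, and p-values then measure the spread between these libraries, which may be technical.

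The lncRNAs fall into a few roles. MALAT1 and the long form of NEAT1 stay in the nucleus, the former in splicing speckles and the latter as the scaffold of paraspeckles, bodies built on RNA-binding proteins such as NONO and SFPQ. KCNQ1OT1 is an imprinted antisense RNA that silences genes around KCNQ1 in cis. NORAD is a cytoplasmic RNA that binds Pumilio proteins such as PUM2, which otherwise repress mitotic and DNA repair mRNAs. GAS5 and DANCR carry small nucleolar RNAs (snoRNAs) in their introns, and the spliced GAS5 RNA is a classic target of nonsense-mediated decay. TUG1 and CYTOR are widely expressed lncRNAs, and CYTOR is best known for its high levels in tumours.

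Library totals ran from 15925943 to 21215352 counts in BCSC and from 9898588 to 12263667 in non-BCSC, so that the BCSC libraries were all the deeper ones. A count of 0 allows up to 3 counts, or 0.141 to 0.303 CPM (a gene's count relative to its library total) in the deepest and the shallowest library. These reads have no molecular identifiers, and such limits cover counting error only. Markers of MDA-MB-231 (VIM, CD44, CAV1, ANXA1, MSN, AXL and EGFR) summed to 7410 to 8722 CPM in BCSC and 4703 to 6298 CPM in non-BCSC. Genes that mark blood, immune, endothelial, fibroblast or liver cells, 8 of them on file, summed to 8.42 to 11.6 CPM in BCSC and 33.8 to 54.3 CPM in non-BCSC, with HBB at 0 in all 3 BCSC libraries and CD68 at 0 in non-BCSC libraries 1 and 3. The 407 olfactory receptor genes, which a breast line should hardly use, took 39.6, 55.5 and 151.8 CPM of all counts in the BCSC libraries and 539.5, 698.1 and 1231 CPM in the non-BCSC libraries. Over the 20442 genes tested, the log2 fold change rose with GC content (Spearman rho 0.54, across genes, which are not independent). These shifts run with the groups, and their values for the 8 lncRNAs stand beside the results.

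Some of the 8 lncRNAs carry sequence features that their biology turns on, or have a near-identical copy elsewhere in the genome. NORAD lies on the minus strand at chr20:34633540-34638940 (all coordinates are GRCh37) as a single exon of 5401 nt. Pumilio proteins bind the 8 letters TGTANATA in DNA spelling (UGUANAUA in the RNA). Read on the transcript strand, NORAD-201 held 15 of them, 2.78 per kb, of which 10 were TGTATATA, 4 TGTAAATA and 1 TGTACATA. Of 450 lncRNA transcripts within 10% of its length, 47.6% held at least 1 and 0.444% held as many. Among the leading transcripts of the other 7 genes, KCNQ1OT1-201 held 9 (0.098 per kb), NEAT1-202 held 6 (0.26 per kb) and TUG1-206 held 1 (0.24 per kb). Those of MALAT1, CYTOR, DANCR and GAS5 held 0. Elements 1, 3, 4, 5 and 15 of NORAD are printed to show the 3 spellings and a pair that lie side by side, with the element in capitals and 11 bases on each side.
NORAD element 1, chr20:34638104-34638133: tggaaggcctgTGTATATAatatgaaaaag
NORAD element 3, chr20:34637624-34637653: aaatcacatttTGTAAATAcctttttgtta
NORAD element 4, chr20:34637423-34637452: ttacttatctgTGTATATAgtgtacataaa
NORAD element 5, chr20:34637414-34637443: tgtgtatatagTGTACATAaaggacagacg
NORAD element 15, chr20:34634266-34634295: attagcctattTGTAAATAcctttgttata

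**Figure D1:**
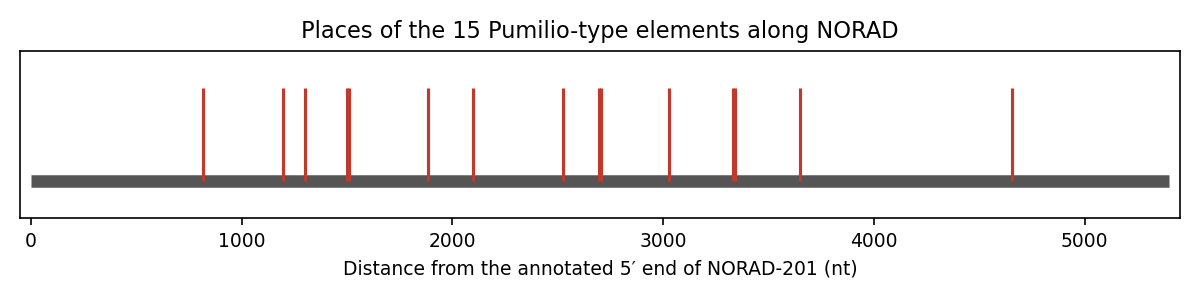
Each red line marks 1 of the 15 Pumilio-type elements along NORAD-201 (grey bar, 5401 nt), by distance in nt from the annotated 5′ end. The first starts at nt 819 and the last at nt 4657, and the last but one starts at nt 3651.

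MALAT1 and the long NEAT1 isoform share an unusual 3′ end, which forms a protective triple helix instead of carrying a conventional poly(A) tail. The last 60 bases of NEAT1-202 and the matching 60 bases of MALAT1-202 are shown with the shared final 11 bases in capitals. In MALAT1-202 these 11 bases recur at nt 875 and at nt 8467, and the second, which is printed, lies 1957 bases before the annotated end. The same 11 letters stood in 13.2% of 68 other lncRNA transcripts of 10000 nt or more.
NEAT1-202, chr11:65212952-65213011, plus strand: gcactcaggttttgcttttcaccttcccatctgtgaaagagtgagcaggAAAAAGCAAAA
MALAT1-202, chr11:65273528-65273587, plus strand: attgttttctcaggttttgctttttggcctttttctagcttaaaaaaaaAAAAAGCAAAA

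CYTOR has a near-identical copy, MIR4435-2HG, elsewhere on chromosome 2. An alignment of 6657 columns, 88.4% of CYTOR-216, was 99.1% identical to MIR4435-2HG-275.

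Of the 8 lncRNA genes, CYTOR was called higher in BCSC and NEAT1 was called lower, where a call means an adjusted p under 0.05 in edgeR's quasi-likelihood test and a fold above 2. Over all 20442 genes tested, 8.85% were called higher and 11.3% lower, so 1 of 8 in each direction is near the background. At the adjusted p alone, 5 of 8 differed (29.9% of all genes): TUG1 and CYTOR were higher and MALAT1, NEAT1 and KCNQ1OT1 lower in BCSC, of which KCNQ1OT1 turned positive when GC content and length were corrected over all genes. The same 5 had groups that did not overlap, as did 52.1% of all genes. The median log2 fold change of the 8 was -0.10, against -0.05 over all genes tested.

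**Figure D2:**
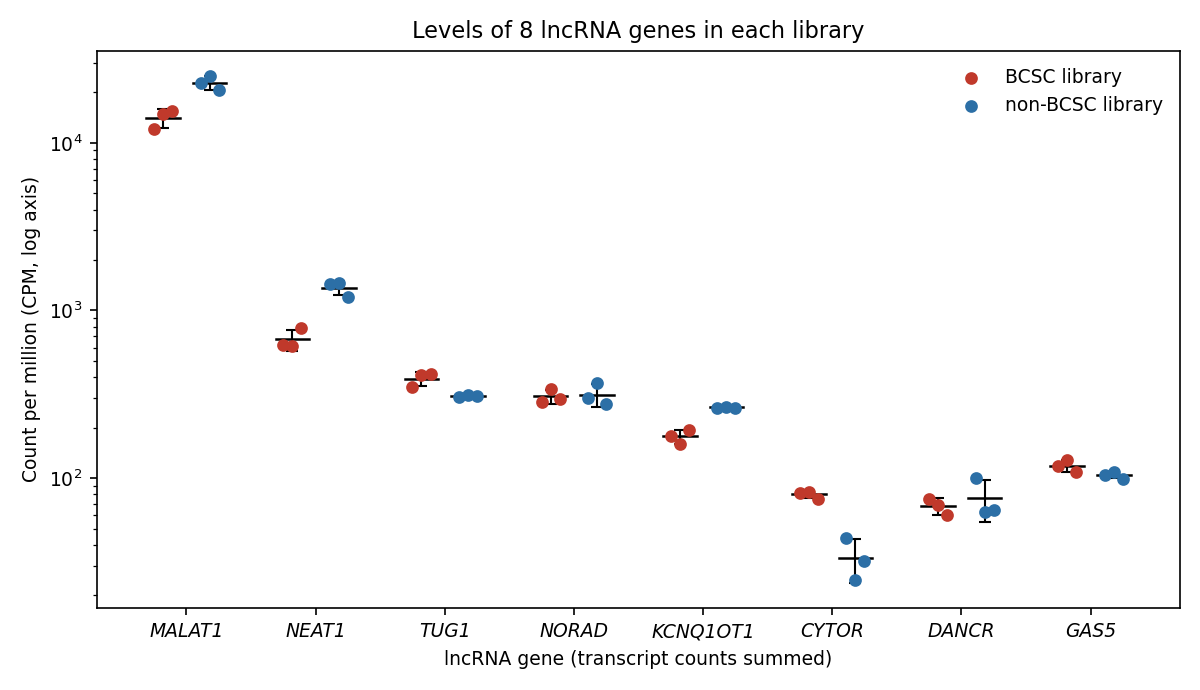
CPM (log axis) of the 8 lncRNA genes in each library. Red points are the 3 BCSC libraries, blue points the 3 non-BCSC libraries, and black lines the mean ± SD. The groups of MALAT1, NEAT1 and KCNQ1OT1 (lower in BCSC) and of TUG1 and CYTOR (higher) do not overlap; the direction of KCNQ1OT1 turns with a GC and length correction over all genes.

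NEAT1 (chr11:65190245-65213011, plus strand), the paraspeckle scaffold, stood at 622.7, 612.0 and 782.8 CPM in the BCSC libraries and at 1443, 1454 and 1208 CPM in the non-BCSC libraries. Every non-BCSC library was above every BCSC library, and in bulk libraries such as these, fewer cells with an RNA and less of it per cell cannot be told apart. The level was 2.03 times higher in non-BCSC, a log2 fold change of -1.02 (SE 0.12, 95% interval -1.30 to -0.75, adjusted p = 0.000806). The fold lies close to the minimum of 2: without BCSC replicate 1, BCSC replicate 2, non-BCSC replicate 1 or non-BCSC replicate 2 it fell short of that minimum, at log2 values of -0.97 to -0.93, while the adjusted p was 0.0119 or lower whichever library was left out. It also fell short with no filter on low counts (-0.95) and with GC content and length corrected over all genes (-0.54).

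MALAT1 (chr11:65265111-65275544, plus strand), its neighbour and the speckle RNA, had the highest count of all genes in both groups. It took 1.15, 1.43 and 1.52% of all counts in the BCSC libraries and 2.25, 2.48 and 2.19% in the non-BCSC libraries. In CPM, the BCSC libraries held 12035, 14890 and 15410, below the 22743, 24989 and 20754 of the non-BCSC libraries. The groups were apart, with BCSC lower by a log2 fold change of -0.69 (SE 0.11, 95% interval -0.94 to -0.44, adjusted p = 0.00277), short of the 2-fold minimum. With GC content and length corrected over all genes, the difference was no longer seen (-0.01, adjusted p = 0.988). TALAM1, an antisense RNA that overlaps 77.8% of the MALAT1 exon bases, had 6.43 to 10.8% of the MALAT1 count in every library and a log2 fold change of -0.37 (SE 0.10, adjusted p = 0.0213). Whether the counting used strand is not stated, and without it reads of the pair cannot be told apart.

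KCNQ1OT1 (chr11:2618538-2721233, minus strand), the imprinted antisense RNA, was counted through 1 unspliced transcript of 91667 nt at chr11:2629558-2721224. It stood at 178.6, 159.5 and 193.5 CPM in BCSC and at 263.3, 265.1 and 263.7 CPM in non-BCSC. The 3 non-BCSC libraries lay within 2 CPM of each other and above all BCSC libraries, with a log2 fold change of -0.58 (SE 0.10, 95% interval -0.81 to -0.34, adjusted p = 0.00442) that was short of the 2-fold minimum and turned to 0.32 with GC content and length corrected over all genes. Its count is spread thinly: per kb of transcript, it was 20.1 times the mean count per kb of the olfactory receptor genes in BCSC and 3.09 times in non-BCSC. A transcript of its length counted at the olfactory receptor level per kb would hold 2.5, 3.91 and 8.60% of its count in the BCSC libraries and 22.4, 28.6 and 47.9% in the non-BCSC libraries. With that level subtracted from every gene, the log2 fold change was -0.37 (adjusted p = 0.076).

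CYTOR (chr2:87754300-87936259, plus strand) was the lncRNA called higher. It stood at 81.8, 83.2 and 75.4 CPM in BCSC and at 44.2, 24.8 and 31.9 CPM in non-BCSC. The lowest BCSC library was above the highest non-BCSC library, at 2.38 times the level (log2 fold change 1.25, SE 0.20, 95% interval 0.79 to 1.71, adjusted p = 0.00298). It was called higher whichever library was left out, at log2 values of 1.12 to 1.55. Its copy MIR4435-2HG stood at 212.5 ± 12.6 CPM (SD, n = 3) in BCSC and 124.7 ± 12 in non-BCSC, a log2 fold change of 0.77 (SE 0.11, adjusted p = 0.00177). Because how reads were shared between the pair is not given, both were also summed as 1 gene, which had a log2 fold change of 0.89 (adjusted p = 0.0012) and missed the 2-fold minimum.

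TUG1 (chr22:31365231-31375381, plus strand) was the other lncRNA that was higher in BCSC. It stood at 351.0, 410.9 and 416.1 CPM in BCSC and at 303.0, 313.6 and 307.0 CPM in non-BCSC. The groups did not overlap, but the difference was small, at 1.28 times (log2 fold change 0.35, SE 0.10, 95% interval 0.13 to 0.57, adjusted p = 0.0256). Leaving out 1 library at a time gave an adjusted p under 0.05 in 2 of 6 cases, with a highest value of 0.101. With the olfactory receptor level subtracted it was at 0.06 (adjusted p = 0.696).

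NORAD, DANCR and GAS5 were not called, and their groups overlapped. NORAD stood at 285.5, 340.9 and 294.7 CPM in BCSC and at 300.0, 367.7 and 276.1 CPM in non-BCSC, with a log2 fold change of -0.04 (95% interval -0.32 to 0.25, adjusted p = 0.854). Replicate 2 was the highest in both groups. A copy of NORAD in OVCH1-AS1 (4614 nt at 95.9% identity) had mean counts of 16.7 in BCSC and 75.7 in non-BCSC, while NORAD had 2879 or more in every library. DANCR (chr4:53578492-53589790, plus strand) stood at 75.1, 69.2 and 59.9 CPM in BCSC and at 100.2, 62.6 and 64.8 CPM in non-BCSC, where library 1 was above all others (log2 fold change -0.16, 95% interval -0.59 to 0.28, adjusted p = 0.568). GAS5 (chr1:173827697-173838020, minus strand) stood at 118.4, 127.7 and 108.6 CPM in BCSC and at 104.9, 109.4 and 99.4 CPM in non-BCSC, and only the lowest BCSC library lay within the non-BCSC range (log2 fold change 0.18, 95% interval -0.08 to 0.43, adjusted p = 0.259). These intervals leave room for differences of up to 0.59 on the log2 scale and hold for this fit. Corrected for GC content and length over all genes, GAS5 was called higher at 1.29 (adjusted p = 0.00155), and NORAD was at 0.71 (adjusted p = 0.0253).

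Levels can be compared between genes only per length. In CPM per kb of count-weighted transcript length, MALAT1 was first in both groups, at 1396 ± 180 in BCSC and 2259 ± 210 in non-BCSC. In BCSC there followed TUG1 (79.4 ± 7.31), NORAD (56.8 ± 5.49), GAS5 (55.1 ± 4.44), NEAT1 (31.7 ± 4.51), CYTOR (17.8 ± 0.93), DANCR (17.1 ± 1.92) and KCNQ1OT1 (1.93 ± 0.19). NORAD and GAS5, and likewise CYTOR and DANCR, did not differ beyond their spread there. In non-BCSC, NEAT1 (64.5 ± 6.54), TUG1 (62.2 ± 1.07) and NORAD (58.2 ± 8.80) lay within each other's spread, ahead of GAS5 (48.7 ± 2.32), DANCR (19.1 ± 5.30), CYTOR (7.47 ± 2.17) and KCNQ1OT1 (2.88 ± 0.01). NEAT1 thus stood behind TUG1, NORAD and GAS5 in BCSC and beside the former pair in non-BCSC.

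The direction of several of these differences rested on how GC content, length and low-level background were treated. Corrected for GC content and length over all genes tested, MALAT1 had a log2 fold change of -0.01 (adjusted p = 0.988), NEAT1 -0.54 (0.0533) and KCNQ1OT1 0.32 (0.201), while TUG1 (1.14), GAS5 (1.29) and CYTOR (1.74) were called higher, against a background of 15.4% called higher and 9.58% lower. That correction also moved the median of the 5661 better-counted genes (500 counts or more on average) from 0.18 to 0.75. When only those 5661 genes were fitted with the same correction, their median was 0.01. The values had the signs of the uncorrected fit over all genes, from which this fit differs in its genes as well as in the correction. They were MALAT1 -0.84, NEAT1 -1.29, KCNQ1OT1 -0.39, TUG1 0.32, NORAD -0.07, GAS5 0.22 and CYTOR 1.1. DANCR reached -0.46 (adjusted p = 0.016) in the corrected fit of those genes. With the olfactory receptor level subtracted, MALAT1 was at -1.0, NEAT1 at -1.31, CYTOR at 1.14, TUG1 at 0.06 (adjusted p = 0.696) and GAS5 at -0.11. CYTOR was positive and NEAT1 negative in all 19 alternatives.

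**Figure D3:**
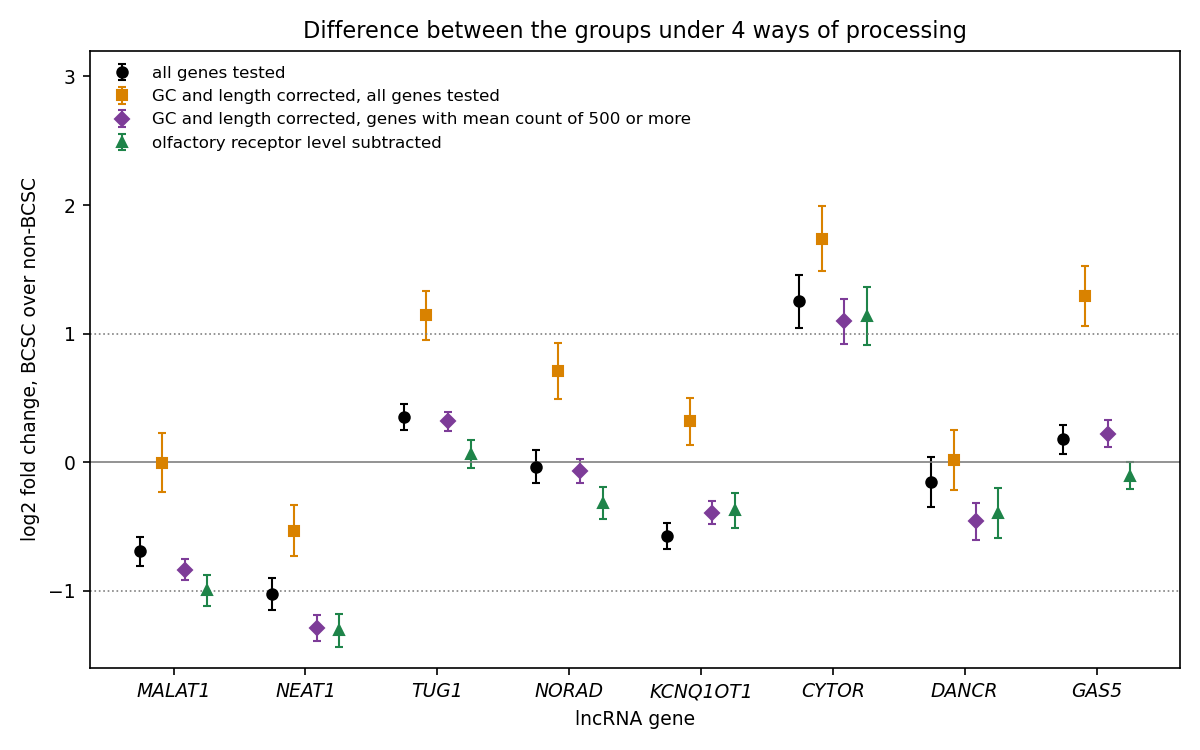
Log2 fold change of BCSC over non-BCSC (points, with bars of ± 1 SE) for the 8 lncRNA genes in the test over all genes, in 2 fits corrected for GC content and length, and with the olfactory receptor level subtracted. Dotted lines mark the minimum fold of 2. NEAT1 stays below 0 and CYTOR above 0 in all 4, while NORAD, KCNQ1OT1, DANCR and GAS5 change side in 1 of them.

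Isoform use, the share of a gene's count that each transcript takes, was examined next. Of the 191 transcripts of the 8 genes on file, 58 passed the filter, 8 had an unadjusted p under 0.05 (17.4% of all transcripts) and 0 were called by edgeR (0.784%). DESeq2 called 4, against 16.2% of all transcripts to which it gave an adjusted p. In the edgeR test of use, 0 of the 6 genes with 2 or more tested transcripts changed, against 9.98% of the 8750 genes tested. Of these, 1 gene, MALAT1, had an unadjusted p under 0.05 by edgeR, and by limma 0 genes changed as well. At the level of single transcripts, limma called GAS5-231 (log2 difference 3.74, adjusted p = 0.0140; 7.88% of all transcripts were called), which edgeR did not (adjusted p = 0.941). Its counts were 46, 27 and 32 in the BCSC libraries against 0, 14 and 0 in the others. Single transcripts varied between libraries of 1 group far more than their genes did, with a biological coefficient of variation of 1.02 against 0.453. No call among transcripts therefore says little about isoforms of these genes. Of simulated transcripts changed by a log2 fold of 3, 0 of 98 were recovered. The test of use recovered all 200 simulated switches, with 21 false calls. Those switches were simulated apart from the transcripts and not at a set log2 fold. Their dispersion (the square of the coefficient of variation) was set at 0.05, far below that of the transcripts here. The recoveries therefore cannot be compared. They do not show how well a change in use would be found in these genes.

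**Figure D4:**
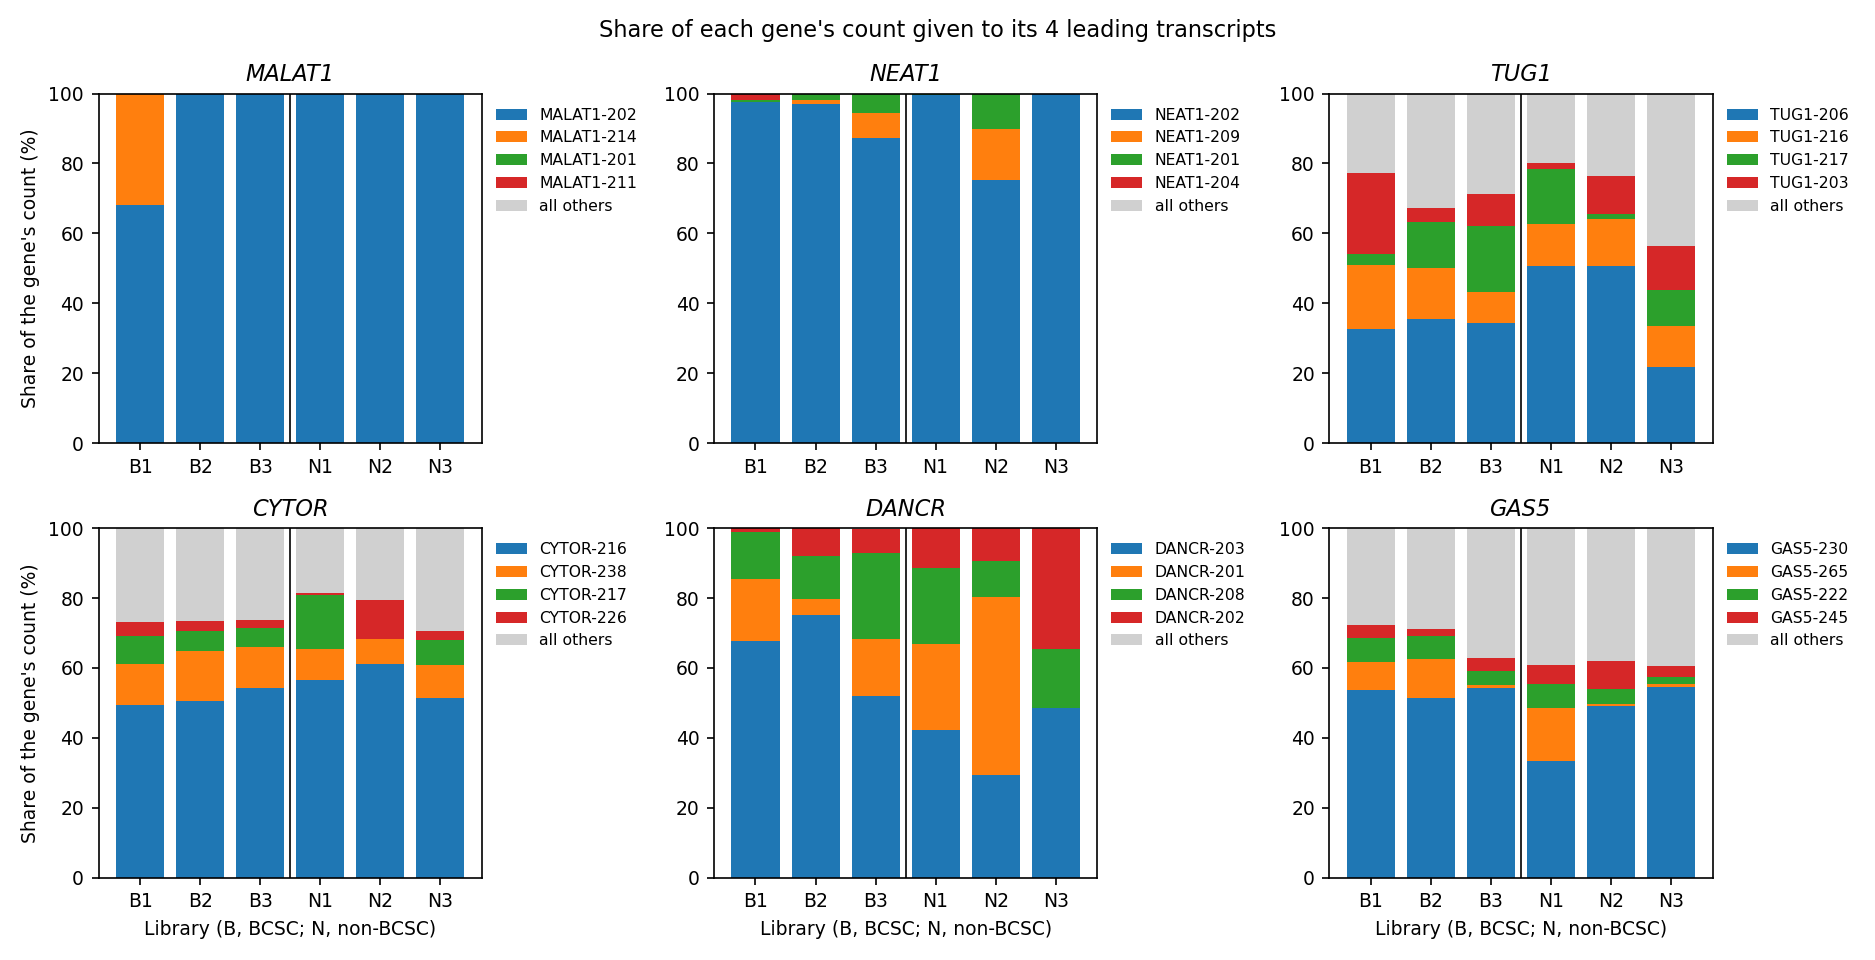
Share of each gene's count (%) taken by its 4 leading transcripts (colours) and all others (grey) in the 3 BCSC (B1 to B3) and 3 non-BCSC (N1 to N3) libraries. MALAT1 splits in BCSC library 1 alone, and the NEAT1 short forms stand out in non-BCSC library 2. DANCR-203 is larger in every BCSC library, without a call in the test of use.

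MALAT1 was almost wholly MALAT1-202, the unspliced form of 10434 nt, with 99.8 to 99.9% of the count in 5 libraries. In BCSC library 1 it took 68.2%, and MALAT1-214, a spliced form of 3 exons, took 31.6%, or 77120 counts against 84 to 534 in the other libraries. MALAT1-214 was singled out after its values were seen. The test gave it a log2 fold change of 5.39 with an SE of 2.64 (adjusted p = 0.38), and the level of the whole gene in BCSC library 1 was the lowest of the 6 in CPM.

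NEAT1 was mostly NEAT1-202, the long paraspeckle form of 22743 nt (chr11:65190269-65213011), at 97.4, 96.9 and 87.4% of the count in BCSC and 99.6, 75.3 and 100% in non-BCSC. Its own log2 fold change was -0.91 (SE 0.13, adjusted p = 0.0513). The short forms NEAT1-201 and NEAT1-209, which end far upstream, took 10.1 and 14.6% in non-BCSC library 2, and 5.59 and 6.96% in BCSC library 3. They had 0 counts each in non-BCSC library 3, so the groups overlapped. Short and long forms share their first bases, and reads there can fit either.

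DANCR was the gene whose leading isoform differed most between the groups: DANCR-203 (6065 nt, 2 exons) took 67.8, 75.1 and 52.0% in the BCSC libraries against 42.3, 29.5 and 48.5% in the others. The shares did not overlap, but how often that holds over all transcripts was not counted. The edgeR test of use gave an adjusted p of 1.0 for this transcript. DANCR-201 took 50.8% in non-BCSC library 2 and 0% in non-BCSC library 3. Between 2 libraries, the part of the DANCR count that sat in different transcripts averaged 32.4% across groups and 26.9% within a group.

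TUG1, CYTOR and GAS5 were spread over many transcripts. TUG1-206 led TUG1 at 34.1 ± 1.55% (SD, n = 3) in BCSC and 41.0 ± 16.7% in non-BCSC, where library 3 held 21.8%. CYTOR-216 (7512 nt, 2 exons) took 51.3 ± 2.59% and 56.3 ± 4.93%, and its log2 fold change of 1.2 (SE 0.35, adjusted p = 0.16) was near that of the gene. CYTOR-238 took 12.6 ± 1.46% and 8.57 ± 1.29%, and the edgeR test of use gave it an unadjusted p of 0.71. GAS5-230 (3145 nt, 2 exons) took 53.2 ± 1.47% and 45.7 ± 11%. The part of the count in different transcripts averaged 33% across groups and 31.2% within groups for TUG1, 23.9 and 18.7% for CYTOR, and 25.3 and 22.7% for GAS5. NORAD and KCNQ1OT1 were read from 1 transcript each and had no share to compare.

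The genes that act with these lncRNAs were counted in lists set out by role, which were chosen with earlier results of these data known. Of 14 paraspeckle proteins, RBM14 was called higher (log2 fold change 1.51, SE 0.23) and PSPC1 lower (-1.17, SE 0.13). SFPQ, a core paraspeckle protein, was lower at 581.2 ± 55.3 CPM in BCSC against 1040 ± 33.2 (-0.84, adjusted p = 0.000709), whereas its partner NONO was higher at 406.1 ± 41.7 against 268.8 ± 48.3 (0.60, adjusted p = 0.0127). Both were short of the 2-fold minimum. The median of the list was 0.27, against -0.05 over all genes. HNRNPK and NUDT21 had log2 fold changes of 0.19 and -0.46.

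Of 11 nuclear speckle proteins, RNPS1 (1.30) and U2AF2 (1.43), both splicing factors, were called higher and 0 lower. The splicing factor SRSF1 and the speckle core proteins SRRM2 and SON had log2 fold changes of 0.12, 0.68 and 0.10. Of 12 tested genes that process the 3′ ends of MALAT1 and NEAT1, chiefly RNase P subunits, 0 were called by edgeR and 1 by DESeq2, and 6 had an unadjusted p under 0.05 (43.1% of all genes had one, and DESeq2 called 25.9%). POP4, an RNase P subunit, and ELAC2, the RNase Z that cuts tRNA 3′ ends, had log2 fold changes of 0.09 and 0.62. Among 5 tested Pumilio proteins and NORAD partners 0 were called by either tool, and 3 had an unadjusted p under 0.05, while the GC and length correction over all genes led to 2 called higher in each of these lists. RBMX, an RNA-binding protein of NORAD, stood at 459.8 ± 45.3 against 338.1 ± 22.1 CPM (BCSC first; log2 fold change 0.44, adjusted p = 0.0135), short of the 2-fold minimum. The Pumilio protein PUM2 stood at 322.9 ± 13.1 against 276.0 ± 15.7 CPM.

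Of 7 tested genes in the KCNQ1OT1 imprinted domain, CD81, a tetraspanin, was called higher (1.75, SE 0.28), and DESeq2 called 2 higher and 1 lower. NAP1L4, a histone chaperone, was at 0.16 (adjusted p = 0.404). CDKN1C, the cell cycle inhibitor that KCNQ1OT1 silences, had counts of 9, 18 and 22 in the BCSC libraries against 72, 68 and 8 in the others. Its log2 fold change was -2.11 (adjusted p = 0.104), whereas the other tested genes of the domain had positive ones. Of these, PHLDA2 had counts of 158, 73 and 89 against 15, 21 and 0 (2.52, adjusted p = 0.0791), and SLC22A18 was at 0.65 (0.456). KCNQ1 itself had 0 in every library but non-BCSC 3, which had 8. Among 9 Polycomb and chromatin partners, EHMT2, a histone H3 lysine 9 methyltransferase, was called higher (1.1, SE 0.28), but not without BCSC replicate 1 (0.77), non-BCSC replicate 2 (1.16, adjusted p = 0.0561) or non-BCSC replicate 3 (0.97). EZH2, the catalytic Polycomb subunit, and its partner SUZ12 were at 0.22 (adjusted p = 0.133) and 0.10 (0.614).

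Of 10 nonsense-mediated decay factors tested, UPF1, the central helicase, and SMG5 were called higher (1.67, SE 0.26, and 1.80, SE 0.26), with a list median of 0.52. SMG1, the kinase of UPF1, was at 457.2 ± 22.3 CPM against 319.1 ± 11.4 (0.52, adjusted p = 0.00385), and UPF2, an adaptor of UPF1, was at -0.17 (adjusted p = 0.285). The snoRNAs of the GAS5 and DANCR introns were barely counted: of 8 on file, the highest count in any library was 5, and 0 could be tested. For SNORA26, the list took another gene of that name. The SNORA26 gene that overlaps DANCR had 1 count in every library. Among 13 tested neighbours on the genome, LTBP3 and FRMD8, which flank the NEAT1 and MALAT1 region, were called higher (1.54 and 2.46), opposite in sign to NEAT1 and MALAT1, although LTBP3 was at -0.28 with GC content and length corrected over all genes. ZBTB37, beside GAS5, was at 0.08. NCL, nucleolin, listed with CYTOR as a binding partner, was at 1149 ± 162 and 1715 ± 131 CPM (-0.58, adjusted p = 0.00725), and KHDRBS1, an RNA-binding protein, was at -0.05 (adjusted p = 0.71).

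Most of the calls in these lists were lost when GC content and length were corrected. Of the 10 partner genes called, 0 were still called with the correction over all genes. There RBM14 was at 0.90, PSPC1 at -0.55, RNPS1 at 0.82, U2AF2 at 0.13, CD81 at 0.50, EHMT2 at -0.09, UPF1 at 0.13, SMG5 at 0.55 and FRMD8 at 1.11 (adjusted p = 0.0668). With RLE size factors, DESeq2 or the olfactory receptor level subtracted, all 10 were still called.

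The list medians of the log2 fold change were 0.10 for speckle proteins, 0.40 for 3′ end processing, 0.23 for the Pumilio list, 1.75 for the imprinted domain, 0.43 for the Polycomb list and -0.15 for the neighbours. The median of the imprinted domain rests on 7 tested genes and is the value of CD81. Apart from CD81 and NAP1L4 (0.16), these genes had few counts, with SEs of 0.62 to 1.46.

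**Figure D5:**
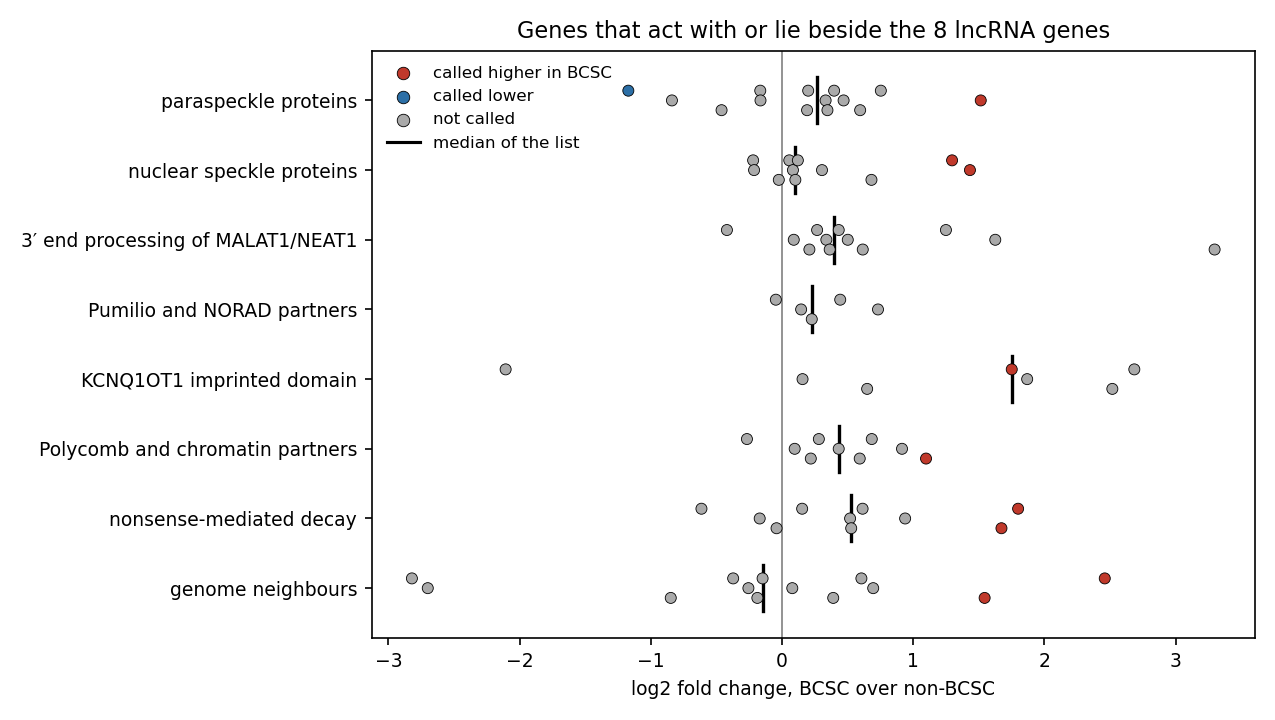
Log2 fold change of BCSC over non-BCSC for each tested gene of 8 lists (points; red called higher, blue called lower, grey not called), with the median of each list as a black line. Paraspeckle genes lie on both sides of 0, with PSPC1 at -1.17 and RBM14 at 1.51.

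Among 24 tested genes of a list of other widely studied lncRNAs, 4 were called higher (LINC00115, SNHG7, MIR22HG and SNHG12) and 2 lower (MIR31HG and SAMMSON). The number called higher was 1 with RLE size factors, 2 when every library had to hold 10 counts or more, and 11 with GC content and length corrected. SNHG7 lost its call in every case of 1 library left out but that of non-BCSC replicate 3, and MIR22HG in every case but that of non-BCSC replicate 1. SNHG12 lost its call without BCSC replicate 3 or non-BCSC replicate 2, and SAMMSON without BCSC replicate 2 or non-BCSC replicate 3. OIP5-AS1, an antisense lncRNA, stood at 416.0 ± 67.5 CPM in BCSC against 596.7 ± 25.5 (-0.52, adjusted p = 0.0131). LINC00115, the lncRNA that the study followed, went from 4.58 ± 1.43 CPM in non-BCSC to 1485 ± 319 in BCSC, a log2 fold change of 8.33 (SE 0.27) that none of the 8 lncRNAs came near. Among 95 lncRNA genes that averaged at least 500 counts, 10.5% were called higher and 4.21% lower, with a median log2 fold change of 0.23.

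As a description over 6 libraries that share their depth and group, the lncRNA gene whose log2 CPM ran most like each of the 8 was found among 522 candidates. The Pearson r was 0.985 for NEAT1 with CRNDE, 0.975 for MALAT1 with PRANCR, 0.991 for KCNQ1OT1 with TSIX and 0.984 for CYTOR with SNHG12. It was 0.980 for TUG1 with ENSG00000268362, 0.974 for GAS5 with ENSG00000273329, 0.969 for NORAD with LINC02506 and 0.931 for DANCR with LINC01588. An r above 0.95 was held by 11 candidates for NEAT1, 15 for MALAT1, 15 for KCNQ1OT1 and 13 for CYTOR. For TUG1, GAS5, NORAD and DANCR it was 3, 2, 1 and 0. A high r does not mean a like fold: TSIX had a log2 fold change of -3.42, against -0.58 for KCNQ1OT1. CRNDE, at 52.6 ± 5.3 CPM in BCSC and 97.9 ± 1.8 in non-BCSC, was lower like NEAT1 (-0.90, adjusted p = 0.00176).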

How the data were processed

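Random-primed, dUTP-marked lncRNA libraries were sequenced from 3 BCSC and 3 non-BCSC samples. Adapters were trimmed and reads aligned with HISAT2. The submitters' processing notes name hg38, featureCounts and DESeq2, while the study's methods name hg19 for RNA-seq, and the step that gave reads to transcripts is not given in the sources used here. Per transcript, the authors deposited estimated counts, in whole numbers and not normalized, so no rounding was needed. Fewer reads tell isoforms apart than count for a gene, which makes transcript values less certain than their sums.

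Of 252618 transcripts, 249616 (98.8%) matched GENCODE release 44 mapped to GRCh37 by identifier and were summed per gene. The file holds no coordinates, and those printed are GRCh37 positions of the identifiers. CPM used TMM library sizes. For genes and transcripts alike, edgeR 4.0.16 under R 4.3.3 was used with its expression filter and a robust two-sided quasi-likelihood fit on group, BH-adjusted over all features, with calls made where the adjusted p was under 0.05 and the fold above 2. Isoform use was tested with diffSpliceDGE (Simes per gene). Copies were found with BLAST 2.17.0. The tests were checked on simulated data: of genes changed by a log2 fold of 2, 80.8% of 99 were recovered over 18851 genes. The lncRNAs and gene lists were chosen with earlier results of these data known. Some listed partner genes and a stretch of sequence are not reported here.

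CDKN1C and KCNQ1 are named outside the rule as known targets, and PHLDA2 and SLC22A18 as genes of the same domain. The genes named by rule were all 8 lncRNAs, their transcripts with the highest mean share or a call, the list genes that were called, at least the 2 with the highest mean CPM in each list, and the most similar lncRNA gene with a mean of at least 100 counts. Alternatives were RLE size factors, DESeq2 1.42.0, other filters, a replicate block, each library left out, thinning to the smallest library, no minimum fold, unadjusted p, limma 3.58.1 for isoform use, a loess correction for GC content and length (span 0.3), and subtraction of the olfactory receptor count per kb.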

Additional observations from a re-analysis of the deposited data

How the results depend on the processing

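The differences of MALAT1, NEAT1, TUG1 and CYTOR kept their sign in all 19 alternatives. MALAT1 was at -0.01 (adjusted p = 0.988) with GC content and length corrected over all genes, where the median of the better-counted genes was 0.75. TUG1 was at 0.06 (0.696) with the olfactory receptor level subtracted. CYTOR had an adjusted p under 0.05 in all 19 and was called in all but the sum with MIR4435-2HG, an alternative added after seeing the data, which left 0 of 8 called higher. Further additions limited the fit to genes that averaged at least 500 counts, with and without the GC and length correction. Corrected for GC content and length over all genes, 3 were called higher and 0 lower, and NORAD (0.71), KCNQ1OT1 (0.32) and DANCR (0.018) changed sign; the median of all genes moved from -0.05 to 0.16. With no filter, 0 were called lower, NORAD was at 0.034 and the median was -1.02. GAS5 was at -0.11 with the olfactory receptor level subtracted (median 0.13). With no minimum fold, 2 were higher and 3 lower. Leaving out each library gave 1 called higher throughout and 0 to 1 lower. NORAD ran from -0.10 to 0.14, positive without BCSC replicate 1 or non-BCSC replicate 2, and DANCR from -0.24 to 0.15, positive without non-BCSC replicate 1. Among transcripts, DESeq2 called 4 higher and an unadjusted p 5, of which CYTOR-216, CYTOR-218, CYTOR-237 and CYTOR-238 were in both and TUG1-202 in the second; these were named after their values were seen. With at least 10 counts in every library, 1 gene, GAS5, changed in isoform use. Except where a fewer-gene or fewer-library fit is named, the cause was not tested. Same-numbered libraries deviated together at r of 0.27, 0.08 and 0.27, and each correlated best with its own number. The second is too low to pair them, and no source says that a number marks a shared culture. A replicate block left 1 called higher and 1 lower (NEAT1 at -1.03 and CYTOR at 1.29), and 0 transcripts and 0 genes changed in isoform use. Little can be said of the snoRNAs, CDKN1C, PHLDA2 and KCNQ1, which had few or 0 counts in some libraries. What kept these counts low was not tested.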

Other observations

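Marker genes moved with the groups beside the lncRNAs. Of 7 MDA-MB-231 markers, CAV1, the main caveolar coat protein, was called higher in BCSC at 570.4 ± 15.2 CPM (SD, n = 3) against 231.3 ± 21.4, and 0 were called lower. The 7 luminal and epithelial markers summed to 102.6 to 124.8 CPM in BCSC and 127.8 to 161.5 CPM in non-BCSC, and PGR, the progesterone receptor, was called lower (0.75 ± 0.56 against 13.9 ± 6.1 CPM). Of the markers of other cell types, PTPRC, the pan-leukocyte CD45, was called lower, with counts of 4, 6 and 19 in the BCSC libraries against 160, 256 and 216, as were ALB and HBB, whereas CD68 was called higher with 48, 50 and 26 counts against 0, 1 and 0. ALB and HBB lost their calls without BCSC replicate 1, BCSC replicate 2 or non-BCSC replicate 3, and CD68 without BCSC replicate 2. Among the best-counted markers, VIM and CD44 had log2 fold changes of 0.29 and 0.86, ERBB2 and FOXA1 -0.28 and 0.13, and COL1A1 -0.90. PTPRC is a gene that this breast cancer line should lack. The part of these shifts in the values of the 8 lncRNAs was not tested beyond the subtraction of the olfactory receptor level.

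The GC content of the 8 lncRNAs ran from 41.4 to 47.4%. Of the 5976 genes tested within that range, 2.41% were called higher and 11.8% lower, with a median log2 fold change of -0.30. The 1821 of them with a mean of 500 counts or more had a median of 0.12.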
